A study of Mus musculus with 32 samples.

Results

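Mouse embryonic fibroblasts without endogenous Acly were compared in 10 mM glucose after they had been given human ACLY with added nuclear import sequences (the construct ACLY-Nuc; Nuc cells) or mCherry alone (Acly KO; KO cells). The comparison took the 4 Nuc libraries and the 4 KO libraries of that medium, 8 of the 31 libraries with values and of the 32 in the labels. All 12791 genes that carried a symbol in the table were tested. Every cell in the series derives from the Acly knockout fibroblasts, so the deletion is shared by Nuc and KO cells. ACLY-Nuc is mCherry-tagged human ACLY, and the KO cells carried the tag without ACLY in the same vector. Cells grew in DMEM with 10% CS and penicillin and streptomycin, and were collected 24 hours after the change to 10 mM glucose. The series also holds 3 ACLY-Cyto libraries (ACLY with a nuclear export sequence) and 4 ACLY WT libraries (ACLY with neither addition) of the same medium, and all 4 constructs in 1 mM glucose.

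ATP-citrate lyase splits citrate that has left the mitochondria into acetyl-CoA and oxaloacetate. The acetyl-CoA feeds fatty acid and cholesterol synthesis in the cytosol and serves as the acetyl donor for histones in the nucleus. Cells without the enzyme can take acetyl-CoA from acetate through Acss2, and cells short of sterols raise the genes of cholesterol synthesis through the SREBP transcription factors. Fibroblasts are known for secreting collagens and other matrix proteins, and serum makes them turn on growth factor response genes and the cell cycle.

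The groups have limits as a model of ACLY in the nucleus. Where the protein lay was not measured in these data, and the labels leave unsaid how many cultures or infections stand behind the 4 libraries of a line. A difference made by the construct and a difference between cell lines therefore cannot be told apart, and the p-values measure only the spread among these libraries, which may be technical. The fibroblast identity was checked on 15 marker genes, of which 14 were listed, all but Fap. Thy1, a classical fibroblast surface marker, was low, at 1.77 ± 0.23 in Nuc cells and 1.88 ± 0.32 in KO cells on the log2 scale. Of 10 epithelial markers 0 were listed. Leukocyte markers listed were Lyz2, Cd68, Cd14 and Csf1r, 4 of 12, with a summed level of 29.4 to 36.5 CPM in Nuc libraries and 18.8 to 24.8 CPM in KO libraries. Of them Lyz2 rose (1.15 ± 0.14), Cd14 (-1.95 ± 0.37) and Cd68 (-0.69 ± 0.26) fell, and Csf1r was not called. The count of lower markers was 1 without Nuc library 1, 2 or 3 or KO library 1, 3 or 4. The defining leukocyte genes Ptprc and Adgre1 were not listed. Neural markers were 5 of 12 listed, at a summed 33.8 to 51.3 CPM in Nuc and 57.7 to 79.8 CPM in KO libraries, and the part of such markers in the results was not tested. The other sets of markers had 3 or 4 members listed each.

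Values are the authors' log2 levels, close to log2 CPM, the log2 of read counts adjusted for the size of each library. In the text, ± after a level is the SD over 4 libraries of a group; after a fold change or a difference it gives the standard error from limma. A gene was called at a Benjamini-Hochberg adjusted p under 0.05 over all genes, and "rose" and "fell" refer to called genes in Nuc relative to KO cells. Of all genes 45.3% were called, 2898 higher (22.7%) and 2902 lower (22.7%). The fold change reached 2-fold for 576 of the higher and 587 of the lower genes, and the median over all genes was -0.0003 on the log2 scale. These shares are the background for the counts of gene groups below. All 4 Nuc libraries lay above all 4 KO libraries for 18.7% of genes and below them for 18.5%. Where the levels of a gene are given for every library, the groups did not overlap unless the text says so. In bulk samples, fewer cells of a type and less RNA per cell cannot be told apart. No counts were given, so the sequencing depth is unknown. On a principal component analysis of all genes in 10 mM glucose, the Nuc and KO libraries held the opposite ends of the first component (28.1% of the variance), at 31.4 to 38.4 and -52.0 to -40.0, with the Cyto and WT libraries between them. Mitochondrially encoded transcripts made up 4.16% ± 0.0536 of the nominal CPM total in Nuc and 4.74% ± 0.0390 in KO libraries (exact permutation test, two-sided p = 0.0286, the smallest that 4 against 4 libraries allow).

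**Figure D1:**
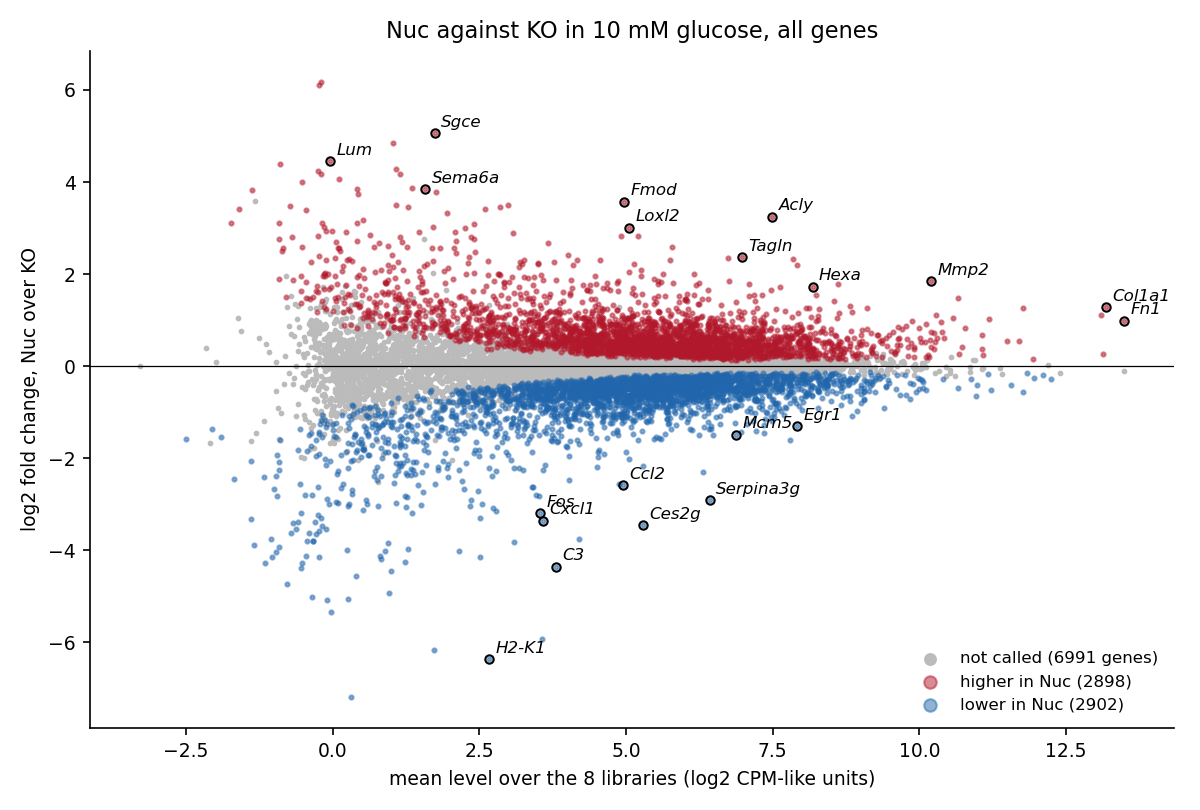
Each point is a gene, with its mean log2 level over the 8 libraries on the horizontal axis and the log2 fold change of Nuc over KO cells on the vertical axis; red genes (2898) were called higher, blue genes (2902) lower and grey genes were not called. The largest fold changes lie among genes of low level, while genes of high level such as Col1a1, Fn1 and Mmp2 also stand above 0.

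Acly transcript checked the labels. It was 9.24, 9.07, 9.18 and 8.98 in Nuc libraries, against 6.12, 5.95, 5.79 and 5.63 in KO libraries, and no library of either group reached the other group's range. The difference was 9.49-fold (log2 fold change 3.25 ± 0.09, limma adjusted p = 2.54e-13). Nuc cells had less Acly transcript than the other lines with ACLY, with log2 differences of -1.09 ± 0.09 (limma adjusted p = 1.84e-07) against WT and -0.62 ± 0.10 (limma adjusted p = 1.42e-04) against Cyto cells. The transgene is human while the table lists mouse genes, and the sources used here do not describe the handling of transgene reads.

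Acetyl-CoA supply genes were lower more often than higher. Of 17 measured members 8 fell and 4 rose, the higher share being near that of all genes (22.7% in each direction). Acss2, which makes acetyl-CoA from acetate, was 3.79, 3.46, 3.82 and 3.90 in Nuc libraries, against 4.63, 4.78, 4.66 and 5.00 in KO libraries, so all Nuc libraries lay below all KO libraries (log2 fold change -1.02 ± 0.15, limma adjusted p = 2.95e-05). The carrier that exports citrate from mitochondria, Slc25a1, differed little (log2 fold change -0.19 ± 0.07, limma adjusted p = 0.0438). Its groups overlapped, and the call was lost without Nuc library 1 or 2 or without KO library 2, 3 or 4. Pdha1 and Pdhb of pyruvate dehydrogenase fell (-0.45 ± 0.05 and -0.32 ± 0.09), and Slc16a1, which carries lactate and pyruvate across the plasma membrane, fell too (-0.68 ± 0.08). Among the kinases that switch pyruvate dehydrogenase off, Pdk2 rose (0.54 ± 0.10) and Pdk3 fell (-0.77 ± 0.10). Citrate synthase, Cs, was at 7.98 ± 0.05 in Nuc cells and 8.02 ± 0.05 in KO cells and was not called (log2 fold change -0.03 ± 0.05, limma adjusted p = 0.58). Of 16 citric acid cycle genes 1 rose and 6 fell, among them Fh1 (-0.65 ± 0.13) and Idh3g (-0.66 ± 0.09).

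Cholesterol synthesis genes were lower in Nuc than in KO cells at nearly every step. Of 10 genes from Acat2 to Fdft1, the early mevalonate pathway, 9 fell and 0 rose, with a median log2 fold change of -0.88. Only Ggps1 of these, which leads to protein prenylation rather than to sterols, was not called (0.10 ± 0.11). Acat2, which condenses acetyl-CoA units at the pathway's entry, was 6.85, 6.57, 6.79 and 6.97 in Nuc libraries, against 7.73, 8.04, 8.01 and 8.02 in KO libraries, with a log2 fold change of -1.16 ± 0.08. Hmgcs1, which makes HMG-CoA (-0.56 ± 0.08), the isomerase Idi1 (-0.94 ± 0.07) and squalene synthase Fdft1 (-1.08 ± 0.09) also fell without overlap between the groups.

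Of 12 genes that turn squalene into cholesterol, 9 fell and 1 rose, with a median of -0.57. Sc5d, which places a double bond in the sterol ring, was 6.38, 6.08, 6.28 and 6.27 in Nuc libraries, against 7.61, 7.68, 7.73 and 7.69 in KO libraries (log2 fold change -1.43 ± 0.10). Nsdhl (-1.37 ± 0.07), Dhcr7 (-1.11 ± 0.17) and Msmo1 (-0.90 ± 0.08), further enzymes of the same stretch, fell as well. Cyp51, lanosterol demethylase, was the member that rose (log2 fold change 0.28 ± 0.07, limma adjusted p = 0.00254), and Lss, which closes the rings, was not called (-0.03 ± 0.17). Against WT cells, where 6 of the 12 late genes were higher in Nuc and 2 lower, the median was 0.21, and against Cyto cells, where 0 were higher and 6 lower, it was -0.25. Over all genes limma called 15.0% higher and 13.8% lower in Nuc than in WT cells, and 15.3% higher and 15.7% lower in Nuc than in Cyto cells.

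Genes of SREBP control, of the LDL receptor and of sterol transport were listed together and did not all follow the pathway. Of 11 measured members 5 fell and 2 rose, with a median of -0.16, against 22.7% of all genes in each direction. Stard4, which carries cholesterol between membranes, was among those that fell (-1.02 ± 0.08). Insig1 encodes the anchor that holds SREBP in the endoplasmic reticulum when sterols are plentiful, and it is itself a known SREBP target. It was 5.53, 5.54, 5.43 and 5.48 in Nuc libraries, against 4.6, 4.72, 4.96 and 4.82 in KO libraries and so rose (log2 fold change 0.72 ± 0.09, limma adjusted p = 3.98e-06) while the synthesis genes fell. Srebf1, one of the SREBP genes, was not called (-0.22 ± 0.15). The sterol regulatory element (SRE), TCACNCCAC with N as any base, was searched in the RefSeq promoter windows described under data processing. Among early mevalonate genes with such a window, 1 of 7 held it (Hmgcs1), 14.3%. Of the late sterol genes with a window 0 of 10 held it, against 1.19% of 9711 tested genes.

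Genes of the sterol sensor LXR and its targets, of cholesterol efflux, lysosomal exit and ester storage were listed together and mostly higher. Of 9 measured members 6 rose and 1 fell, with a median of 0.56. Abca1, the exporter that loads cholesterol onto apolipoproteins and a classical target of the sterol sensor LXR, was 6.79, 6.99, 6.96 and 6.29 in Nuc libraries, against 5.76, 5.34, 5.30 and 4.93 in KO libraries (log2 fold change 1.42 ± 0.16, limma adjusted p = 2.63e-06). Npc1 (1.15 ± 0.08) and Npc2 (0.72 ± 0.09), which move cholesterol out of lysosomes, rose also. Soat1, which esterifies cholesterol for storage, fell (-0.52 ± 0.11). The summed level of the 9 genes was 889.9 to 991.8 CPM in Nuc libraries and 608.7 to 666.6 CPM in KO libraries.

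Of 18 fatty acid synthesis genes 12 fell and 1 rose, with a median of -0.38. Fasn, the fatty acid synthase, was 8.56, 8.51, 8.55 and 8.71 in Nuc libraries, against 8.84, 8.97, 9.0 and 8.81 in KO libraries (log2 fold change -0.32 ± 0.07, limma adjusted p = 0.00143). The desaturases Scd1 (-0.45 ± 0.07), Scd2 (-0.29 ± 0.05) and Fads2 (-0.48 ± 0.05) fell. Larger changes were seen in genes that activate long-chain fatty acids, Acsl3 (-1.23 ± 0.09) and Acsl4 (-1.14 ± 0.10). Acaca, which commits acetyl-CoA to the pathway as malonyl-CoA, was 8.02, 7.55, 7.63 and 7.17 in Nuc libraries, against 7.95, 8.09, 7.58 and 7.5 in KO libraries; the groups overlapped and the gene was not called (-0.19 ± 0.17). Elovl1, an elongase of very long chains, was the member that rose (0.57 ± 0.07). Genes of fatty acid oxidation showed the opposite split, with 6 of 18 higher, among them Hadhb (0.45 ± 0.09) and Slc25a20 (0.56 ± 0.13), and 0 lower. Of the same genes 1 was called lower when Nuc library 4 or KO library 2 was left out, and 2 when libraries were weighted. In the lipid droplet group 6 of 16 rose, among them Pnpla2 (0.56 ± 0.13), the lipase that opens triglyceride breakdown, and its coactivator Abhd5 (0.62 ± 0.09), and 3 fell, led by Lpin1 (-0.83 ± 0.11).

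**Figure D2:**
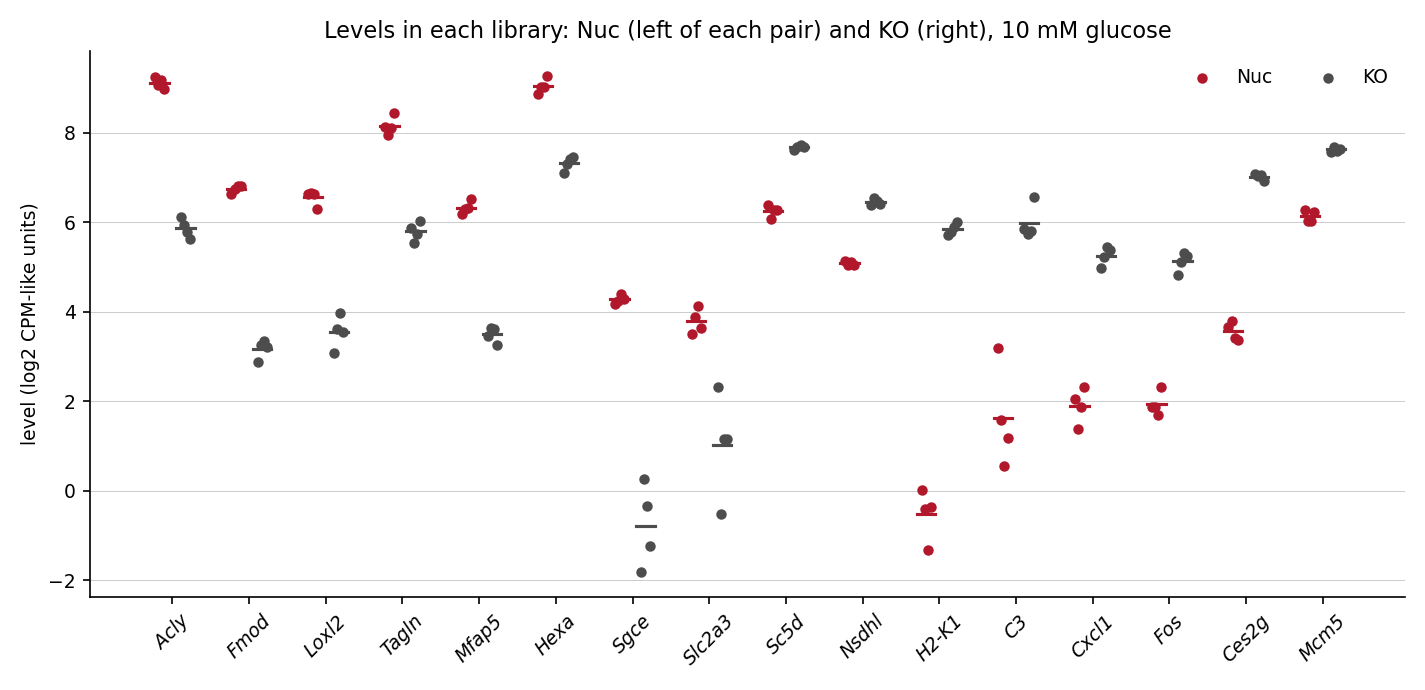
Each point is a library; the vertical axis gives the log2 level of 16 named genes, with the 4 Nuc libraries (red) left of the 4 KO libraries (grey) and the group mean as a bar. The 8 genes on the left stand higher in Nuc cells and the 8 on the right lower, with no overlap of the groups for any of the 16.

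Extracellular matrix genes were mostly higher. Of 18 measured collagen genes 17 rose, 1 fell and all were called, with a median log2 fold change of 0.80. Their summed level was 40500 to 43180 CPM in Nuc libraries and 20190 to 20940 CPM in KO libraries, without overlap. Col1a1, a chain of the main fibrillar collagen, was 13.73, 13.89, 13.87 and 13.79 in Nuc libraries, against 12.47, 12.49, 12.59 and 12.60 in KO libraries (log2 fold change 1.28 ± 0.06, limma adjusted p = 1.16e-10), and its partner Col1a2 changed by 1.11 ± 0.05. Under quantile normalization the log2 fold changes of these highly expressed genes were 0.41 and 0.44, against 1.28 and 1.11 here, so their size depends on the normalization. The summed collagen level was not recomputed under it. Col14a1, a fibril-associated collagen, and Col11a1, a minor fibrillar chain, rose most (1.60 ± 0.49 and 1.54 ± 0.06). Col18a1 of basement membranes was the member that fell, 3.78, 2.99, 3.63 and 3.82 in Nuc libraries, against 4.52, 4.75, 5.00 and 4.59 in KO libraries (-1.16 ± 0.16). In direct tests, 14 of the 18 collagens were higher in Nuc than in Cyto cells and 0 lower (median 0.67), against 15.3% and 15.7% of all genes. Against WT cells 9 were higher and 1 lower (median 0.14), against 15.0% and 13.8% of all genes.

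Enzymes that mature and cross-link collagen rose in 13 of 19 cases and fell in 3. Loxl2, a lysyl oxidase that cross-links collagen, was 6.63, 6.66, 6.64 and 6.29 in Nuc libraries, against 3.07, 3.60, 3.97 and 3.55 in KO libraries, an 8.05-fold difference (log2 fold change 3.01 ± 0.14, limma adjusted p = 7.92e-11). Adamts2, which trims procollagen ends (2.01 ± 0.06), Plod2 (0.96 ± 0.11), a lysyl hydroxylase, and Serpinh1 (0.53 ± 0.06), the collagen chaperone, rose with it. Pcolce2 (-2.20 ± 0.24), an enhancer of procollagen processing, and the transglutaminase Tgm2 (-2.05 ± 0.60) fell.

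Small proteoglycans that bind collagen fibrils held the gene with the highest fold change among those at or above the median level. Fmod, fibromodulin, was 6.64, 6.75, 6.80 and 6.80 in Nuc libraries, against 2.88, 3.27, 3.34 and 3.21 in KO libraries, an 11.9-fold difference (log2 fold change 3.57 ± 0.10, limma adjusted p = 2.96e-13). Dcn, decorin, rose (log2 fold change 1.66 ± 0.14, limma adjusted p = 8.76e-08), at 5.16 ± 0.14 in Nuc cells and 3.50 ± 0.31 in KO cells. Lum, lumican, was 2.12, 2.44, 1.66 and 2.48 in Nuc libraries, against -3.29, -3.29, -1.67 and -0.85 in KO libraries. A pair of the KO libraries stood at the lowest value of the table, so the fitted fold change of Lum (4.45 ± 0.69) is not a measured size. Has2, which makes hyaluronan, rose (1.02 ± 0.09), as did Hyal1 (2.56 ± 0.30), a hyaluronidase. The hyaluronan-degrading Cemip (-3.0 ± 0.26), the hyaluronan receptor Cd44 (-0.90 ± 0.09) and the large proteoglycan Vcan (-0.91 ± 0.13) fell. In all, 9 of 19 genes of this group rose and 5 fell.

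Elastic fibre genes moved in both directions. Mfap5, a microfibril protein, was 6.19, 6.29, 6.32 and 6.51 in Nuc libraries, against 3.45, 3.64, 3.61 and 3.27 in KO libraries (log2 fold change 2.83 ± 0.13, limma adjusted p = 5.72e-11), and Fbn1 (1.25 ± 0.14), the main microfibril component, and Fbln5 (1.54 ± 0.05), which organises elastin, rose too. Eln, elastin, was 0.45, 0.15, 0.12 and -0.27 in Nuc libraries, against 1.92, 1.15, 0.86 and 1.61 in KO libraries and fell (-1.27 ± 0.31). Emilin2 (-2.81 ± 0.18) and Ltbp1 (-1.42 ± 0.07), which stores latent TGF-beta in the matrix, fell as well. The group had 9 of 15 genes higher and 3 lower, with a median of 0.80, and the lower share was near the 22.7% of all genes.

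Matrix glycoproteins, listed together with IGF-binding proteins, were 11 of 18 higher and 4 lower. Fn1, fibronectin, was 14.02, 14.10, 13.98 and 13.85 in Nuc libraries, against 13.13, 12.99, 12.97 and 12.92 in KO libraries (log2 fold change 0.99 ± 0.06, limma adjusted p = 2.59e-09, and 0.39 under quantile normalization). Igfbp5, an IGF-binding protein, was 4.56-fold higher (log2 fold change 2.19 ± 0.13, limma adjusted p = 1.83e-09), and Sparc (1.27 ± 0.06), Postn (1.00 ± 0.05) and Igfbp7 (1.26 ± 0.09) rose. Tgfbi, an adhesion protein named for its induction by TGF-beta, went the other way, 1.60, 1.63, 1.45 and 0.03 in Nuc libraries, against 4.90, 4.94, 5.03 and 5.11 in KO libraries (log2 fold change -3.82 ± 0.33, limma adjusted p = 9.20e-08). WT and Cyto cells stood at 0.10 and 1.46, also below KO cells.

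Metalloproteases and their inhibitors, listed together with the cathepsin Ctsk, rose in 10 of 18 cases and fell in 3. Mmp2, a gelatinase, was 11.05, 11.16, 11.08 and 11.19 in Nuc libraries, against 9.19, 9.24, 9.34 and 9.33 in KO libraries, and Mmp14, the membrane protease that activates it, rose by 1.31 ± 0.05 (Mmp2 log2 fold change 1.84 ± 0.05, limma adjusted p = 2.19e-13). Timp2 (0.95 ± 0.05), which takes part in the same activation, and the collagen-degrading cathepsin Ctsk (1.86 ± 0.09) rose. Mmp9 (-2.25 ± 0.13) fell. Of 20 genes of integrins, which are receptors for the matrix, and of laminins, which are matrix proteins, 14 rose and 3 fell. Itga11, a subunit of a collagen receptor, was 6.78, 6.66, 6.65 and 6.38 in Nuc libraries, against 3.71, 3.88, 3.89 and 3.67 in KO libraries (log2 fold change 2.83 ± 0.10, limma adjusted p = 2.96e-12), and Itga8 (2.47 ± 0.41), Itga7 (1.85 ± 0.22) and Itga1 (1.69 ± 0.13) rose.

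Contractile genes were higher in Nuc cells, with 12 of 18 up, 2 down and a median of 0.50. Tagln, transgelin, was 8.14, 7.96, 8.11 and 8.44 in Nuc libraries, against 5.86, 5.53, 5.75 and 6.04 in KO libraries, a 5.16-fold difference (log2 fold change 2.37 ± 0.13, limma adjusted p = 4.79e-10). Acta2, smooth muscle actin and the usual marker of activated fibroblasts, was 11.34, 11.28, 11.42 and 11.54 in Nuc libraries, against 10.60, 10.66, 10.81 and 10.82 in KO libraries and rose by less (log2 fold change 0.67 ± 0.06, limma adjusted p = 3.26e-07). Myl9, the regulatory myosin light chain, rose (log2 fold change 1.25 ± 0.10, limma adjusted p = 5.04e-08), at 8.91 ± 0.23 in Nuc cells and 7.66 ± 0.18 in KO cells. Vcl, which links integrins to actin, fell (-0.84 ± 0.10), as did Tagln2 (-0.36 ± 0.07). Contractile genes and immediate early genes are textbook targets of serum response factor, which binds the CArG box, a run of CC, then A or T bases, then GG. In the 250 bases before the transcription start, 3 of 15 contractile genes with a RefSeq promoter (Cnn2, Myl9 and Vcl) held a CArG box, 20%, and 2 of 18 immediate early genes (Egr2 and Zfp36), 11.1%, against 1.47% of 9711 tested genes. The promoters of Myl9, which rose, and of Zfp36, which fell, are shown because the same motif stands before genes that moved in opposite directions. They are from RefSeq on GRCm38.p6, with the CArG box in capitals.
Myl9, chr2:156775214-156775463, plus strand: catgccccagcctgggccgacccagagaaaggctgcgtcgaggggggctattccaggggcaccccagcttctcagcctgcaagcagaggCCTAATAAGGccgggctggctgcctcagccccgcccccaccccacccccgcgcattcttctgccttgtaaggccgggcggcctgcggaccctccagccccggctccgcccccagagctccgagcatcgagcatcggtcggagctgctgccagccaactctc
Zfp36, chr7:28379229-28379478, minus strand: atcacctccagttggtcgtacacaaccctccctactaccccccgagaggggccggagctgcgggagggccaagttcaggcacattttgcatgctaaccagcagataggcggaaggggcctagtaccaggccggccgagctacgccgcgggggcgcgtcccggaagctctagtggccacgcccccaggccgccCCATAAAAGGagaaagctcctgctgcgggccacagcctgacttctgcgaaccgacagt
Srf itself fell (-0.41 ± 0.06). Of 6 measured genes of this factor and its cofactors, 1 was higher, 1 was lower (Srf) and 4 were not called.

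TGF-beta pathway genes, which control matrix production in fibroblasts, rose in 12 of 24 cases and fell in 7. The ligand genes Tgfb1 (1.11 ± 0.13) and Tgfb3 (0.46 ± 0.08) rose, as did the receptor gene Tgfbr2 (0.54 ± 0.10). The signal transducer genes Smad2 (-0.44 ± 0.07) and Smad3 (-0.38 ± 0.09) fell. Of the inhibitors of the pathway in the list, Skil (2.08 ± 0.12), Smad7 (0.76 ± 0.20) and Bambi (0.93 ± 0.27) rose, while Smad6, the other inhibitory Smad gene, fell (-0.49 ± 0.10). The activin subunit gene Inhbb (-2.23 ± 0.21) and the activin antagonist gene Fst (-1.39 ± 0.11) fell. Genes of the YAP and TEAD factors, which respond to cell shape and stiffness, were listed together with their known targets. Of 16 members 5 were higher and 6 lower, against 22.7% of all genes in each direction. The higher members included the factor genes Yap1 (0.22 ± 0.05) and Wwtr1 (0.34 ± 0.06), and Tead1 was not called. Ccn1 was 6.96, 7.03, 6.86 and 7.07 in Nuc libraries, against 8.39, 8.47, 8.77 and 8.73 in KO libraries (log2 fold change -1.61 ± 0.09, limma adjusted p = 3.78e-10), while its relative Ccn2 was 8.31, 8.36, 8.32 and 8.42 in Nuc libraries, against 7.06, 7.27, 7.46 and 7.38 in KO libraries (log2 fold change 1.06 ± 0.07, limma adjusted p = 9.72e-09). Ankrd1 was lower, -1.95 ± 0.17 in Nuc cells and 0.13 ± 0.74 in KO cells (-2.08 ± 0.32). The number of higher members was 3 without Nuc library 3 or without KO library 4.

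**Figure D3:**
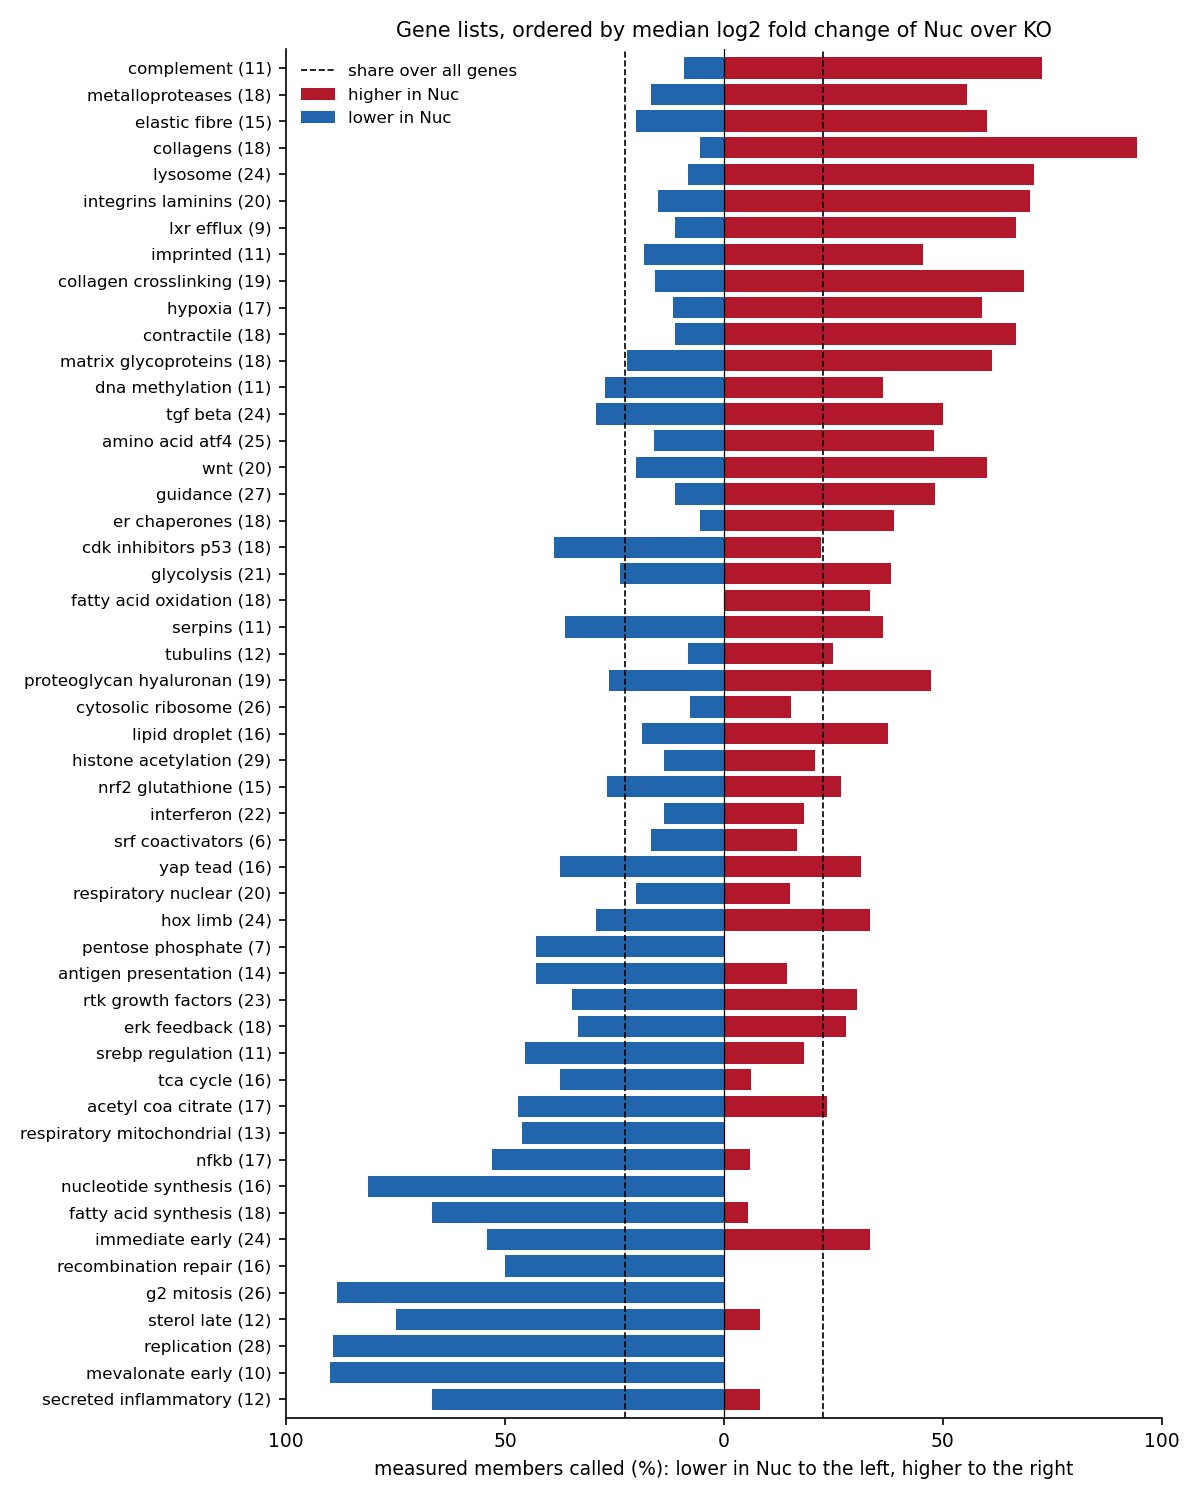
Bars give the share of each gene list's measured members (number in brackets) that was called higher in Nuc cells (red, to the right) or lower (blue, to the left), with the lists ordered by their median log2 fold change; the dashed lines mark 22.7%, the share over all genes in each direction. Collagens (17 of 18 higher) and replication genes (25 of 28 lower) lie far beyond the lines, and interferon and cytosolic ribosome genes do not reach them.

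Growth factor response genes moved in both directions, and among immediate early genes more were lower than higher. Of 24 immediate early genes 13 fell and 8 rose, with a median of -0.41. Fos, a subunit of the AP-1 factor, was 1.87, 1.87, 1.68 and 2.32 in Nuc libraries, against 4.82, 5.11, 5.32 and 5.25 in KO libraries, a 9.12-fold difference (log2 fold change -3.19 ± 0.16, limma adjusted p = 2.96e-10). Zfp36, which promotes decay of cytokine mRNAs, was 2.79, 2.92, 2.91 and 2.51 in Nuc libraries, against 5.11, 5.14, 5.53 and 5.26 in KO libraries (log2 fold change -2.48 ± 0.14, limma adjusted p = 1.14e-09). Egr1 (-1.30 ± 0.08), Ier2 (-1.31 ± 0.11), Fosl1 (-1.02 ± 0.21) and Myc (-0.54 ± 0.08) fell. Other members of the same families rose, among them Fosb (0.86 ± 0.22), Jund (0.58 ± 0.12), Atf3 (0.98 ± 0.16), Nr4a1 (0.86 ± 0.10) and Klf4 (0.76 ± 0.07). Feedback genes of ERK signalling were 6 of 18 lower and 5 higher, against 22.7% of all genes in each direction. The phosphatase gene Dusp6, a close readout of ERK activity in many cells, was 3.36, 3.27, 2.96 and 3.22 in Nuc libraries, against 4.48, 4.34, 4.83 and 4.66 in KO libraries (log2 fold change -1.38 ± 0.17, limma adjusted p = 5.31e-06), and Dusp1 (-1.70 ± 0.12), Etv4 (-1.12 ± 0.12) and Dusp5 (-0.96 ± 0.10) fell. Spry4 (0.99 ± 0.14) and Spry1 (1.15 ± 0.09), which restrain the same pathway, rose.

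Chemokines and other secreted inflammatory factors fell, 8 of 12 measured with 1 higher and a median of -1.30, the lowest of the lists. The neutrophil attractant Cxcl1 was 2.05, 1.37, 1.86 and 2.31 in Nuc libraries, against 4.98, 5.22, 5.45 and 5.37 in KO libraries (log2 fold change -3.36 ± 0.17, limma adjusted p = 3.02e-10). The monocyte attractant Ccl2 was 3.75, 3.33, 3.71 and 3.83 in Nuc libraries, against 6.27, 6.10, 6.33 and 6.30 in KO libraries (log2 fold change -2.59 ± 0.12, limma adjusted p = 4.85e-11), and Ccl7 fell with it (-2.03 ± 0.12). Ptgs2, the inducible cyclooxygenase, was 4.34, 4.19, 4.24 and 4.07 in Nuc libraries, against 6.41, 6.39, 6.49 and 6.21 in KO libraries (log2 fold change -2.17 ± 0.09, limma adjusted p = 1.63e-11), and Ptges, which makes prostaglandin E from its product, fell (-0.82 ± 0.12). Cxcl12, the stromal attractant of haematopoietic cells, was the member that rose (log2 fold change 0.62 ± 0.05, limma adjusted p = 8.98e-08). Il6 was low in all libraries, 0.75 ± 0.56 in Nuc cells and 0.46 ± 0.67 in KO cells, and was not called. The summed level of the 12 genes, to which Cxcl12 at 10.60 ± 0.08 in Nuc cells and 9.98 ± 0.07 in KO cells contributed, was 1890 to 2046 CPM in Nuc libraries and 1705 to 1788 CPM in KO libraries, opposite in direction to the median. Genes of the NF-kB pathway fell in 9 of 17 cases, among them Nfkbie (-1.47 ± 0.14) and Nfkb2 (-0.81 ± 0.06), and Tnfaip2 rose (0.42 ± 0.14), though not without Nuc library 1 or KO library 1.

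Interferon response genes were 4 of 22 higher and 3 lower, against 22.7% of all genes in each direction, with a median of 0.00, although Irf1 fell (-1.09 ± 0.12). The higher count was 1 when only Nuc and KO libraries were fitted or Nuc library 2 was left out, and 2 without Nuc library 4, KO library 1 or KO library 2. Class I antigen presentation genes were 2 of 14 higher and 6 lower, with 3 lower without Nuc library 2 or without KO library 4. H2-K1, a class I heavy chain, was 0.01, -0.40, -1.32 and -0.37 in Nuc libraries, against 5.71, 5.77, 5.89 and 6.00 in KO libraries, an 82.3-fold difference (log2 fold change -6.36 ± 0.38, limma adjusted p = 1.56e-09), and H2-Q4 fell with it (-2.22 ± 0.19). H2-K1 was also low in WT (0.00) and Cyto cells (1.55). Its Nuc levels are so low that the size of the fold change is uncertain. B2m, the light chain, rose (0.41 ± 0.08), as did Tap2 (1.12 ± 0.14), a peptide transporter subunit. Class I genes are near-identical copies of each other, so the assignment of reads among them is uncertain. Complement genes, listed together with a C1q-related gene, went the other way. Of 11 members 8 were higher, that gene among them, and 1 lower, with a median of 0.94. C4b was 2.85, 3.73, 3.29 and 3.00 in Nuc libraries, against -0.72, 0.49, 0.64 and 0.33 in KO libraries (log2 fold change 3.03 ± 0.36, limma adjusted p = 3.65e-06), and the proteases of the classical pathway C1ra (1.40 ± 0.08) and C1s1 (0.96 ± 0.09) rose. The inhibitors Cd55 (1.45 ± 0.09) and Cd59a (0.94 ± 0.16) rose too. C3, the central component, was 3.19, 1.58, 0.55 and 1.18 in Nuc libraries, against 5.84, 5.73, 5.81 and 6.56 in KO libraries, a 20.5-fold difference (log2 fold change -4.36 ± 0.37, limma adjusted p = 9.71e-08), and it was the member that fell.

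Cell cycle genes were mostly lower in Nuc than in KO cells. Of 28 replication genes 25 fell and 0 rose, with a median of -0.79, and their summed level was 1494 to 1661 CPM in Nuc libraries and 2901 to 2976 CPM in KO libraries. Mcm5, a subunit of the replicative helicase, was 6.27, 6.03, 6.02 and 6.22 in Nuc libraries, against 7.58, 7.69, 7.60 and 7.65 in KO libraries (log2 fold change -1.49 ± 0.07, limma adjusted p = 1.79e-10). The other helicase subunits ranged from -1.25 ± 0.08 for Mcm3 to -0.25 ± 0.05 for Mcm2. Cdc6, which loads that helicase at origins, was 4.09, 4.03, 4.01 and 4.37 in Nuc libraries, against 5.54, 5.68, 5.38 and 5.64 in KO libraries (log2 fold change -1.44 ± 0.10, limma adjusted p = 1.05e-08), and Cdt1 (-1.40 ± 0.10), its partner in loading, fell as well. Pola1, the polymerase that starts new strands (-1.47 ± 0.11), and Uhrf1, which brings DNA methylation to new strands (-1.27 ± 0.06), were among the lowest. Orc1 and Ccne1 were not called (0.07 ± 0.18 and 0.17 ± 0.12), nor was Ccne2 (-0.26 ± 0.18), which was called lower without Nuc library 2. Enzymes of nucleotide synthesis fell in 13 of 16 cases and rose in 0, among them Atic (-0.92 ± 0.06) and Umps (-0.85 ± 0.08), while Rrm2, the regulated subunit of ribonucleotide reductase, changed by only -0.22 ± 0.06.

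Replication genes are textbook targets of E2F factors. The sequences TTTGGCGC or TTTCCCGC, searched on both strands of the 250 bases before the start, were found in 7 of 23 replication genes with a RefSeq promoter (Mcm5, Mcm6, Mcm7, Cdc6, Gins3, Pola1 and Dtl), 30.4%, against 2.86% of 9711 tested genes. A match is a description of the letters in this window and not a measured site. The promoters of Mcm5, Mcm6 and Cdc6 are shown because these genes fell and hold the motif, which stands in capitals. All are from RefSeq on GRCm38.p6.
Mcm5, chr8:75109259-75109508, plus strand: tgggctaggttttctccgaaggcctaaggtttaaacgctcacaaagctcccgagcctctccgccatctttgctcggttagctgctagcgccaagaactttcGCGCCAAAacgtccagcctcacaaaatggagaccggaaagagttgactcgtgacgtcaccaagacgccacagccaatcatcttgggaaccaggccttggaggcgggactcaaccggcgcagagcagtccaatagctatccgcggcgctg
Mcm6, chr1:128359706-128359955, minus strand: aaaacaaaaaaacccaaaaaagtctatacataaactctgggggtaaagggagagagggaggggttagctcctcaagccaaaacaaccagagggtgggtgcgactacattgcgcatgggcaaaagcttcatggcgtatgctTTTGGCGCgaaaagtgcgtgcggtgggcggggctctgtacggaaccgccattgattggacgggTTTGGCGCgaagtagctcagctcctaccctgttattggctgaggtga
Cdc6, chr11:98907901-98908150, plus strand: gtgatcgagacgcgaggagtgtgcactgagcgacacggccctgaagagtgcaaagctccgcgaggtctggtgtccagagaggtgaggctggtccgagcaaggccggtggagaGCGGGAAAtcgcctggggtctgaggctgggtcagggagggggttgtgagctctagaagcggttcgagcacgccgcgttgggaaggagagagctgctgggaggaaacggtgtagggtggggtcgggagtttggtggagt
The Mcm6 window held 2 matches, and the others 1 each.

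Of 26 genes of G2 and mitosis 23 fell and 0 rose, with a median of -0.49. Top2a, a topoisomerase that untangles chromosomes, was 8.58, 8.52, 8.59 and 8.68 in Nuc libraries, against 9.46, 9.36, 9.35 and 9.44 in KO libraries (log2 fold change -0.81 ± 0.05, limma adjusted p = 1.56e-09). Ect2 (-1.01 ± 0.17) and Kif23 (-0.95 ± 0.09), both of cytokinesis, were lowest, and Mki67, the usual proliferation marker, changed by -0.57 ± 0.11. In the direct tests 17 of the 26 were higher in Nuc than in Cyto cells, against 15.3% of all genes, and 0 were lower (median 0.28). Against WT cells 4 were higher, a share near the 15.0% of all genes, and 1 was lower (median 0.03). Genes of recombination repair fell in 8 of 16 cases and rose in 0 (1 without KO library 1), among them Exo1 (-0.99 ± 0.14) and Brca2 (-0.90 ± 0.20). Of 18 cell cycle inhibitor and p53 genes 4 were higher, a share near the 22.7% of all genes, and 7 lower. Cdkn1a, the p21 inhibitor, was 7.61, 7.67, 7.55 and 7.83 in Nuc libraries, against 7.14, 7.18, 7.23 and 7.31 in KO libraries (log2 fold change 0.45 ± 0.06, limma adjusted p = 1.60e-05), and Cdkn2b rose (0.57 ± 0.11). Trp53 fell (-0.74 ± 0.05), and of the cyclins of early G1, Ccnd1 fell (-0.54 ± 0.04) while Ccnd2 rose (0.97 ± 0.08).

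Glycolysis genes were higher more often than lower. Of 21 members 8 rose and 5 fell, the lower share being near the 22.7% of all genes. The count of lower genes was 3 in the fit of Nuc and KO libraries alone and without Nuc library 2, Nuc library 3 or KO library 3. Slc2a1, the main glucose transporter of fibroblasts, was 6.95, 6.95, 6.97 and 7.03 in Nuc libraries, against 6.18, 6.13, 6.29 and 6.27 in KO libraries (log2 fold change 0.76 ± 0.07, limma adjusted p = 2.10e-07). Slc2a3, a transporter of high affinity, was 3.50, 3.88, 4.12 and 3.64 in Nuc libraries, against 2.32, -0.53, 1.16 and 1.17 in KO libraries (log2 fold change 2.76 ± 0.40, limma adjusted p = 2.72e-05), with a wide spread in the KO libraries. Hk2, the inducible hexokinase, was 6.48, 6.55, 6.37 and 6.29 in Nuc libraries, against 4.85, 4.82, 4.91 and 5.06 in KO libraries (log2 fold change 1.51 ± 0.09, limma adjusted p = 8.21e-10). Hk1, the hexokinase of most tissues, was not called (0.10 ± 0.05), except without the libraries numbered 4, and Pfkm, a phosphofructokinase gene, fell (-0.26 ± 0.06). Further down, Pgk1 (-0.55 ± 0.07) and Pkm (-0.47 ± 0.06) fell. The pentose phosphate pathway had 0 of 7 genes higher (1 without Nuc library 2 or KO library 4) and 3 lower. G6pdx, which makes cytosolic NADPH at the pathway's entry, was 5.70, 5.57, 5.83 and 5.53 in Nuc libraries, against 7.15, 7.08, 6.93 and 6.78 in KO libraries (log2 fold change -1.32 ± 0.10, limma adjusted p = 3.84e-08), and Rpia (-1.02 ± 0.13) and Tkt (-0.54 ± 0.09) fell too.

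Among 17 known hypoxia response genes 10 rose and 2 fell, with a median of 0.50, and the members included the collagen hydroxylases P4ha1 (1.15 ± 0.07) and P4ha2 (0.53 ± 0.07). Vegfa (0.62 ± 0.09), Bhlhe40 (1.45 ± 0.09) and Ankrd37 (1.61 ± 0.37) rose, and Ndrg1 fell (-0.44 ± 0.06). Amino acid response genes under the factor ATF4 were 12 of 25 higher and 4 lower. Trib3 was 6.87, 7.06, 7.07 and 7.31 in Nuc libraries, against 5.70, 6.11, 6.05 and 6.26 in KO libraries (log2 fold change 1.04 ± 0.10, limma adjusted p = 5.34e-07), and Ddit3 (1.03 ± 0.08) and the mitochondrial folate enzyme Mthfd2 (0.89 ± 0.07) rose, while the serine synthesis genes Phgdh (-0.42 ± 0.09) and Psat1 (-0.30 ± 0.06) fell. Chaperones of the endoplasmic reticulum were 7 of 18 higher and 1 lower, with a median of 0.16. Hspa5, the chaperone BiP, was 9.58, 9.5, 9.59 and 9.79 in Nuc libraries, against 9.49, 9.61, 9.62 and 9.74 in KO libraries, with overlapping groups and a log2 fold change of 0.00 ± 0.07. Antioxidant genes were 4 of 15 higher and 4 lower, shares near the 22.7% of all genes in each direction. Gstp1, a glutathione transferase, stood out at 6.49, 6.44, 6.63 and 7.05 in Nuc libraries, against 5.03, 5.06, 5.18 and 5.27 in KO libraries (log2 fold change 1.52 ± 0.12, limma adjusted p = 4.76e-08), although near-identical Gstp genes make its read assignment uncertain.

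Of 24 lysosomal genes 17 rose and 2 fell (1 without Nuc library 1, 2 or 3 or KO library 1, 3 or 4), with a median of 0.68 and a summed level of 8818 to 10030 CPM in Nuc and 5458 to 6207 CPM in KO libraries. Hexa, a subunit of the hexosaminidase that degrades gangliosides, was 8.86, 9.02, 9.02 and 9.28 in Nuc libraries, against 7.11, 7.30, 7.41 and 7.46 in KO libraries (log2 fold change 1.73 ± 0.08, limma adjusted p = 1.47e-10). The sialidase Neu1 (1.23 ± 0.11), the glucosidase Gaa (1.09 ± 0.06), the sphingolipid activator precursor Psap (1.05 ± 0.06) and the cathepsin Ctsz (0.98 ± 0.11) rose. Gpnmb, a glycoprotein of lysosomes and melanosomes that was outside this list, was 8.96, 9.02, 9.10 and 9.0 in Nuc libraries, against 6.72, 6.49, 6.77 and 6.75 in KO libraries, 5.04-fold higher (log2 fold change 2.33 ± 0.06, limma adjusted p = 1.68e-13). The summed leukocyte markers, with Lyz2 higher, moved in the same direction as lysosomal and complement genes. Their median log2 fold change was -0.61, in the opposite direction, with Cd14 and Cd68 lower. Ptprc and Adgre1 were not listed, and the part of such cells was not tested. Tfeb, which encodes a master regulator of these genes, was not called (-0.39 ± 0.31). The core of the CLEAR element that TFEB and its relatives bind, TCACGTGA, was found within 250 bases before the start of 5 of 20 lysosomal genes with a RefSeq promoter (Ctsa, Ctsd, Gla, Atp6v1a and Mcoln1), 25%, against 1.83% of 9711 tested genes. Of these, Ctsa (0.79 ± 0.07), Ctsd (0.61 ± 0.07) and Atp6v1a (0.35 ± 0.06) rose, and Gla (0.17 ± 0.12) and Mcoln1 (0.18 ± 0.10, called higher without KO library 1) were not called. The windows of Ctsa and Ctsd are shown, from RefSeq on GRCm38.p6, with the core in capitals.
Ctsa, chr2:164833523-164833772, plus strand: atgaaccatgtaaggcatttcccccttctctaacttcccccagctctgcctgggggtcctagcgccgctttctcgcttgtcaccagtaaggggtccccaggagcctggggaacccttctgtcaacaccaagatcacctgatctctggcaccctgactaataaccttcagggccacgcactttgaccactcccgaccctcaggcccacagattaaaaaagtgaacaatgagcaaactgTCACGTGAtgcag
Ctsd, chr7:142387828-142388077, minus strand: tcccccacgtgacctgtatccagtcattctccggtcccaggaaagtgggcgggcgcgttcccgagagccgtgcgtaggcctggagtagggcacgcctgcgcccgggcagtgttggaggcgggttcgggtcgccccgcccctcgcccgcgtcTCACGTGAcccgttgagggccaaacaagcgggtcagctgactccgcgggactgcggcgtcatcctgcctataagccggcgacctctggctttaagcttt

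Ribosomal protein genes were 4 of 26 higher and 2 lower, with a median of 0.06, under the background in both directions. Nuclear genes of the respiratory chain were 3 of 20 higher and 4 lower, and the lower count was 10 without Nuc library 4 and 11 with library weights. Of 13 mitochondrially encoded genes 0 rose and 6 fell, with the complex I subunits mt-Nd2 (-0.65 ± 0.05), mt-Nd1 (-0.57 ± 0.05) and mt-Nd3 (-0.57 ± 0.11) lowest. The share of mitochondrial transcripts given above is the sum of these genes over the nominal CPM total. The sum of all values was 1.006 to 1.032 times that total in Nuc and 0.9517 to 0.9712 times in KO libraries. Taken of each library's own sum, the mitochondrial share was 4.096% ± 0.094 in Nuc and 4.939% ± 0.075 in KO libraries.

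Genes of chromatin were examined because nuclear acetyl-CoA is the substrate of histone acetyltransferases. Of 29 histone acetylation genes 6 rose, 4 fell and 19 were not called, shares below the background in both directions. The acetyltransferase genes Hat1 (log2 fold change -0.79 ± 0.07, limma adjusted p = 1.03e-07) and Kat2a (log2 fold change -0.62 ± 0.06, limma adjusted p = 6.07e-07) fell, with Hat1 at 5.66, 5.51, 5.65 and 5.68 in Nuc libraries, against 6.37, 6.40, 6.45 and 6.43 in KO libraries. Ep300 and Crebbp, the broad acetyltransferases of enhancers, were not called (-0.17 ± 0.18 and -0.34 ± 0.20, the second called with the replicate number as a block). Some deacetylase genes rose, Hdac11 by 1.13 ± 0.16, Hdac5 by 0.76 ± 0.08 and Hdac9 by 1.38 ± 0.36, whereas Hdac6 fell (-0.56 ± 0.12). The bromodomain reader gene Brd2 was not called (-0.06 ± 0.06). The count of lower members was 7 with the replicate number as a block. Among DNA methylation genes, the maintenance methyltransferase Dnmt1 was 7.33, 7.33, 7.25 and 7.16 in Nuc libraries, against 8.22, 8.13, 8.19 and 8.16 in KO libraries (log2 fold change -0.91 ± 0.07, limma adjusted p = 1.44e-08) and the remodeller Hells fell (-1.26 ± 0.14). Dnmt3a, which methylates new sites, rose (log2 fold change 0.98 ± 0.21, limma adjusted p = 0.00117), at 6.14 ± 0.34 in Nuc cells and 5.16 ± 0.54 in KO cells.

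Imprinted genes included some of the widest gaps between the groups. Sgce was 4.16, 4.24, 4.40 and 4.29 in Nuc libraries, against -1.82, 0.26, -0.34 and -1.24 in KO libraries, a 33.4-fold difference (log2 fold change 5.06 ± 0.30, limma adjusted p = 1.56e-09). The KO levels of Sgce are so low that the size of the fold change is uncertain. Its neighbour Peg10, which shares the imprinted control region, was 0.46, 0.33, -0.18 and -1.31 in Nuc libraries and stood at the table's lowest value in all 4 KO libraries, so no fold change is given. Sgce was at 5.66 in WT and 4.12 in Cyto cells, so the KO cells stood apart from all 3 lines with ACLY. Of 11 measured imprinted genes 5 rose, among them Igf2r (1.05 ± 0.12), and 2 fell. Homeobox and limb genes, which record where in the embryo fibroblasts came from, were 8 of 24 higher and 7 lower. Shox2 (1.59 ± 0.15), Twist1 (0.88 ± 0.12) and Hoxa11 (0.88 ± 0.10) rose, and Prrx2 (-1.12 ± 0.08), Twist2 (-1.04 ± 0.13) and Hoxc8 (-0.61 ± 0.15) fell.

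Signalling genes between cells also differed. Wnt pathway genes were 12 of 20 higher and 4 lower. Rspo3, which strengthens Wnt signals, was 7.69, 7.94, 7.86 and 7.90 in Nuc libraries, against 6.39, 6.25, 6.26 and 6.43 in KO libraries (log2 fold change 1.51 ± 0.07, limma adjusted p = 4.34e-11), and the nuclear factor Lef1 rose (2.28 ± 0.32). Ror2, a receptor for Wnt5a, was 2.04, 2.06, 1.95 and 2.36 in Nuc libraries, against 4.83, 4.75, 4.63 and 4.73 in KO libraries (log2 fold change -2.63 ± 0.13, limma adjusted p = 1.87e-10), and Sfrp1 (-1.31 ± 0.11) and Dkk3 (-1.42 ± 0.33), of families of secreted Wnt modulators, fell. Of the same families Dkk2 rose (1.37 ± 0.51, limma adjusted p = 0.0379; its call was lost in the fit of Nuc and KO libraries alone and without Nuc library 1, 3 or 4 or KO library 2) and Sfrp2 was not called (-0.22 ± 0.41). Guidance genes were 13 of 27 higher and 3 lower. The repellent Sema3a was 7.10, 7.16, 7.24 and 6.80 in Nuc libraries, against 5.12, 4.32, 4.31 and 4.20 in KO libraries (log2 fold change 2.59 ± 0.16, limma adjusted p = 2.61e-09), and Sema6a was 3.29, 3.66, 3.31 and 3.74 in Nuc libraries, against -1.04, -0.64, -0.05 and 0.35 in KO libraries (log2 fold change 3.85 ± 0.54, limma adjusted p = 2.04e-05). The repellent Slit3 (-1.42 ± 0.19) and the ephrin Efnb1 (-1.05 ± 0.14) fell. Growth factors and their receptors split, with 7 of 23 higher and 8 lower, against 22.7% of all genes in each direction. Igf1 (1.86 ± 0.28), Pdgfa (1.22 ± 0.13), Fgf2 (1.05 ± 0.18) and the receptor Pdgfrb (0.78 ± 0.05) rose. Pdgfb (-1.97 ± 0.43), Fgf10 (-1.56 ± 0.16), Fgf7 (-1.01 ± 0.06) and the EGF receptor Egfr (-0.70 ± 0.13) fell.

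Among all genes at or above the median level, the lowest fold changes belonged to enzymes and secreted proteins outside these pathways as well. Ces2g, a carboxylesterase, was 3.66, 3.78, 3.41 and 3.37 in Nuc libraries, against 7.08, 7.03, 7.07 and 6.91 in KO libraries, an 11.0-fold difference (log2 fold change -3.46 ± 0.09, limma adjusted p = 1.68e-13). Serpina3g, a protease inhibitor, was 5.09, 4.76, 4.75 and 5.31 in Nuc libraries, against 7.68, 7.88, 7.98 and 8.0 in KO libraries (log2 fold change -2.91 ± 0.12, limma adjusted p = 3.22e-11), and Serpina3n fell (-2.25 ± 0.18). Slc1a3, a glutamate transporter, was 5.31, 5.03, 5.38 and 4.90 in Nuc libraries, against 7.46, 7.5, 7.51 and 7.38 in KO libraries (log2 fold change -2.31 ± 0.13, limma adjusted p = 5.10e-10). Apln, the ligand of the apelin receptor, fell (-1.61 ± 0.07), and Cep85, a centrosomal protein, fell (-1.86 ± 0.17). At the other end Gxylt2, a xylosyltransferase that acts on Notch, was 7.94, 7.92, 8.01 and 7.75 in Nuc libraries, against 5.59, 5.47, 5.72 and 5.48 in KO libraries (log2 fold change 2.34 ± 0.07, limma adjusted p = 3.19e-13).

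Differences of Nuc from KO cells that the other ACLY constructs did not share were sought with direct tests against WT and Cyto cells in the same fit. These tests called 3685 genes between Nuc and WT cells (28.8%) and 3963 between Nuc and Cyto cells (31.0%). Genes above KO, WT and Cyto cells alike numbered 558 (4.36%), and 558 (4.36%) lay below all 3. Among those at or above the median level, Fmod led the higher set by the smallest of its 3 differences, with differences of 2.47 ± 0.10 against WT and 2.92 ± 0.11 against Cyto cells. Tagln followed, at 3.57 ± 0.13 and 1.85 ± 0.14. Kcnj15, a potassium channel, was at 6.51 ± 0.32 in Nuc cells, 4.12 ± 0.35 (n = 3) in Cyto, 4.43 ± 0.58 in WT and 4.67 ± 0.24 in KO cells. It differed by 2.08 ± 0.24 from WT and 2.39 ± 0.26 from Cyto cells, and WT and Cyto cells were not called against KO for it. Gstp1 (1.61 ± 0.12 and 1.42 ± 0.13), Wdr6 (1.23 ± 0.09 and 1.10 ± 0.10), which takes part in tRNA modification, and Rfx5 (1.04 ± 0.17 and 1.21 ± 0.18), a factor of class II antigen presentation genes, were likewise called against both. Mfap5, seen to stand apart after its values were known, had 2.83 ± 0.13 and 2.02 ± 0.14.

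In the lower set, Ces2g led with -2.83 ± 0.09 against WT and -1.74 ± 0.10 against Cyto cells, although WT and Cyto cells were themselves lower than KO (-0.63 ± 0.09 and -1.72 ± 0.10). Plau, the urokinase protease, was at 5.50 ± 0.14 in Nuc cells, 7.09 ± 0.08 (n = 3) in Cyto, 6.65 ± 0.14 in WT and 7.0 ± 0.14 in KO cells and differed by -1.15 ± 0.09 and -1.59 ± 0.10. Tfrc, the transferrin receptor, was at 4.63 ± 0.26 in Nuc cells, 5.54 ± 0.02 (n = 3) in Cyto, 5.57 ± 0.20 in WT and 5.65 ± 0.06 in KO cells and differed by -0.93 ± 0.12 and -0.90 ± 0.13. Dpt (-1.62 ± 0.12 and -1.0 ± 0.13), a matrix protein, Ccn1 (-1.84 ± 0.09 and -1.08 ± 0.09) and Egr1 (-1.39 ± 0.08 and -1.11 ± 0.09) completed the lower set of the rule. C3 showed the same, at -4.49 ± 0.37 and -3.44 ± 0.40. Gxylt2, by contrast, had 2.11 ± 0.07 for WT over KO, 2.15 ± 0.07 for Cyto over KO and 2.34 ± 0.07 for Nuc over KO, and the direct differences of Nuc from WT and Cyto cells were 0.23 ± 0.07 and 0.19 ± 0.07. These 3 comparisons share the KO libraries. Over all genes limma called 40.8% between WT and KO cells (20.6% higher, 20.2% lower) and 38.5% between Cyto and KO cells (19.6% higher, 18.9% lower).

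**Figure D4:**
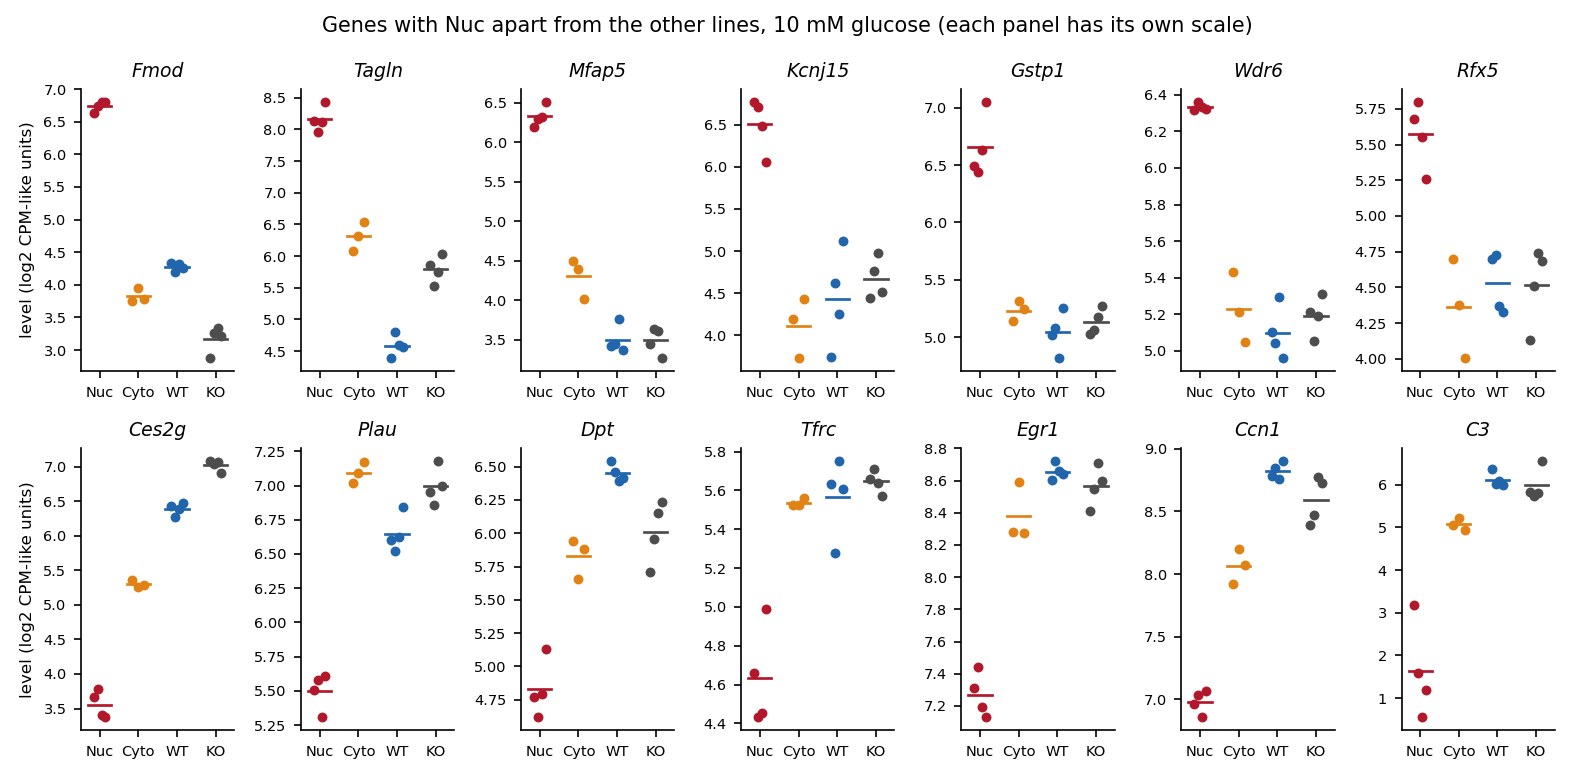
Each panel shows the log2 level of a gene in every library of Nuc, Cyto, WT and KO cells (from left to right), with the group mean as a line and a scale of its own. In the upper row all Nuc libraries lie above those of the other 3 lines, and in the lower row, which ends with C3, all lie below them.

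The same pair of lines was also cultured in 1 mM glucose. That table was normalized separately and its libraries carry another batch number in the labels, so medium and batch cannot be told apart. There limma called 60.0% of 12053 genes between Nuc and KO cells, 30.5% higher and 29.5% lower. The fold change differed between the media for 4351 of 11931 shared genes (36.5%), 2122 higher in 1 mM (17.8%) and 2229 lower (18.7%). The chaperones of the endoplasmic reticulum, of which 7 of 18 were higher and 1 lower in 10 mM glucose, differed between the media. All 18 were higher in Nuc than in KO cells in 1 mM glucose (median 2.37), and for all 18 the difference between media was called. Creld2 had 4.45 ± 0.18 in 1 mM and 0.26 ± 0.10 in 10 mM glucose (the value in 10 mM was called without Nuc library 1 or 2 or without KO library 4), and Hspa5 had 3.04 ± 0.13 and 0.00 ± 0.07. Hyou1 and Manf, further chaperone genes of this group, were likewise among the 5 highest differences of genes at or above the median level, at 3.13 ± 0.11 and 2.79 ± 0.20.

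Growth factor and inflammatory response genes differed between media in both directions. Of 24 immediate early genes the difference was higher in 1 mM glucose for 10 and lower for 5, against 17.8% and 18.7% of all shared genes. Of 11 secreted inflammatory genes it was higher for 7 and lower for 3, and of 18 genes of ERK feedback it was higher for 8 and lower for 0. Fos had -0.27 ± 0.59 in 1 mM and -3.19 ± 0.16 in 10 mM glucose, a difference of 2.92 ± 0.66. Cxcl1 had -0.37 ± 0.35 and -3.36 ± 0.17 (difference 2.99 ± 0.41), and Ptgs2 rose in 1 mM glucose (1.01 ± 0.25) where it fell in 10 mM (difference 3.17 ± 0.28). Dusp6 turned in the same way, with 1.34 ± 0.29 in 1 mM glucose and a difference of 2.72 ± 0.36. Cdc6 rose in 1 mM glucose (0.45 ± 0.11; difference 1.89 ± 0.14), whereas Mcm5 fell in both media (-1.28 ± 0.07 in 1 mM). Of 27 replication genes listed in 1 mM glucose 20 fell there and 3 rose, against 29.5% and 30.5% of all genes.

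Sterol genes fell further in 1 mM glucose. All 12 late genes and 9 of 10 early genes were lower there, and the difference was called for 10 and 7 of them. Insig1, which rose in 10 mM glucose, fell in 1 mM (-0.51 ± 0.08; difference -1.23 ± 0.12). Collagens were less raised, with 11 of 18 higher in 1 mM glucose (median 0.40) and 11 called as differing between the media. Among genes at or above the median level, the lowest differences belonged to Txnip (-3.71 ± 0.25 in 1 mM and -0.18 ± 0.06 in 10 mM glucose), which brakes glucose uptake, and to Plekhg4, the amine oxidase Aoc3 and the matrix proteoglycans Prelp and Aspn, at -2.20 ± 0.33, -1.99 ± 0.20, -2.09 ± 0.16 and -1.96 ± 0.11. Igfbp5 (-1.16 ± 0.20 in 1 mM glucose) and Wdr6 (-0.58 ± 0.10) fell there although they rose in 10 mM, with differences of -3.35 ± 0.25 and -1.72 ± 0.13.

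**Figure D5:**
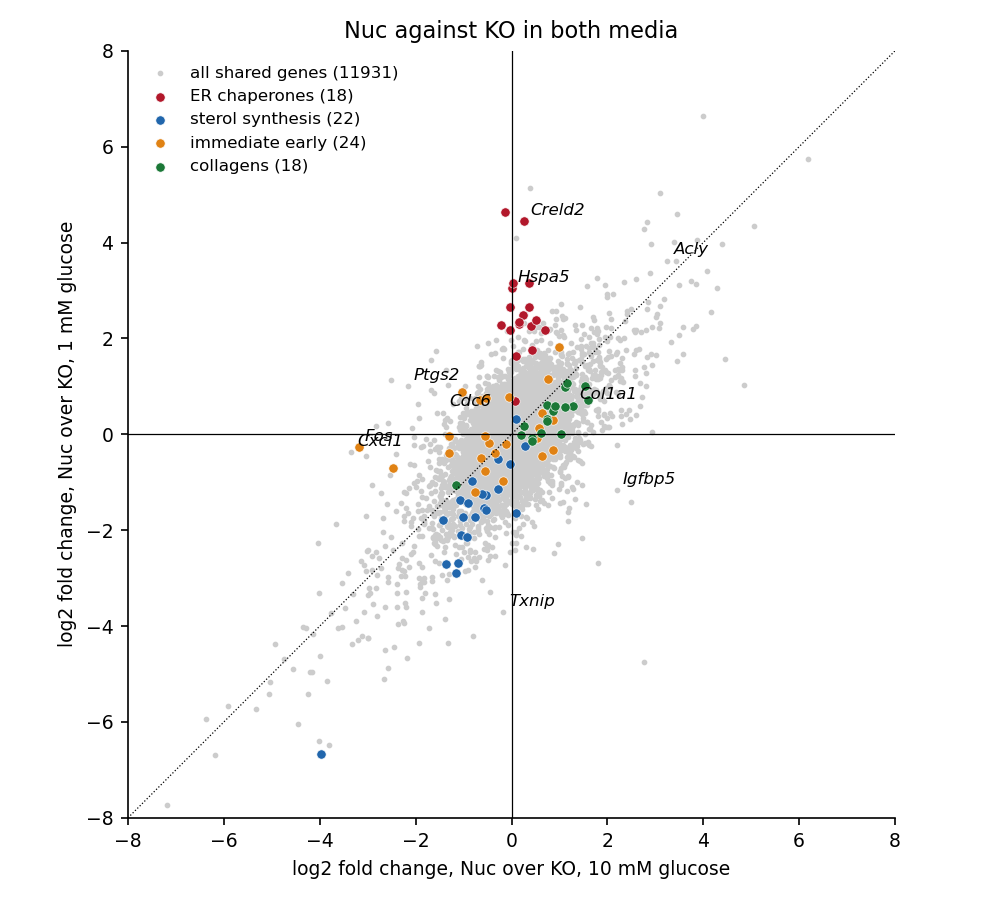
Each point is a gene of both tables, with the log2 fold change of Nuc over KO cells in 10 mM glucose on the horizontal axis and in 1 mM glucose on the vertical axis; colours mark 4 gene lists and the dotted line equal values. The 18 chaperones of the endoplasmic reticulum lie between -0.23 and 0.70 on the horizontal axis and above 0 on the vertical axis, and the sterol synthesis genes lie mostly below 0 on both.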

How the data were processed

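RNA from mouse embryonic fibroblasts was sequenced, and the authors deposited log2 expression values per gene, one table for each medium. The submitters' processing notes name kallisto, edgeR, limma and the GRCm39 build. The offset and exact scaling of the log2 values are not given in the sources used here, so they are called close to log2 CPM; per the file headers, 15 libraries have values in 10 mM glucose and 16 in 1 mM. Cyto library 3 of 10 mM glucose, which the labels describe as an anomaly, was not analysed here. Depth and counting error are unknown, and the lowest value of each table (-3.293 and -3.592) stands for the least signal. An entry without a symbol was left out of either table.

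The deposited log2 values were fitted with limma 3.58.1 in R 4.3.3 (group means of all 4 constructs of the medium, empirical Bayes with a trend, Benjamini-Hochberg adjustment over all genes of the table). The difference between media was fitted over the 11931 genes of both tables. Of the 12791 genes of the 10 mM table all were tested without a filter. Summed levels are sums of 2 to the power of the log2 value. The scripts were tested on simulated data. Named genes were Acly, the 8 highest and 8 lowest fold changes among called genes at or above the median level (4.955) with groups that did not overlap, up to 4 members of each list with the smallest adjusted p, a set of pathway genes, 6 genes at each end that differed from all other lines, and 5 at each end of the difference between media. Other list members and Mfap5 in the comparison with all lines were picked as examples after their values were seen. Some genes that the rule names are not reported here. The members and gene lists were chosen with earlier results of these data known. Promoter windows are the 250 bases before the transcription start in RefSeq on GRCm38.p6, which 9711 tested genes had, with motifs searched on both strands. Alternatives were no trend, equal library medians, quantile normalization, a minimum mean log2 of 0, the addition of 1 to linear values, library weights, the replicate number as a block, only Nuc and KO libraries, and leaving out libraries.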

Additional observations from a re-analysis of the deposited data

Results flagged for a closer look

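The level of 37 gene groups of 4 libraries, of 536 tested for the named genes, held a library that lay apart from the other 3 by Dixon's criterion, and chance gives about 5% of groups. Nuc library 1 lay below the other Nuc libraries for C1ra (7.46 against 7.60 to 7.61). Nuc library 2 lay above the other Nuc libraries for Ccne2 (4.84 against 4.06 to 4.18), Mcoln1 (5.87 against 5.67 to 5.70) and Spry4 (4.02 against 3.79 to 3.80). Nuc library 2 lay below the other Nuc libraries for Idi1 (6.92 against 7.12 to 7.15) and Uhrf1 (6.58 against 6.75 to 6.77). Nuc library 3 lay below the other Nuc libraries for Col14a1 (-0.72 against 0.86 to 1.07). Nuc library 4 lay above the other Nuc libraries for Apln (4.56 against 4.34 to 4.35), Ccne1 (5.29 against 4.86 to 4.89), Ctsz (7.22 against 6.74 to 6.81), Ier2 (6.05 against 5.69 to 5.72), Kat2a (6.28 against 6.11 to 6.14), P4ha1 (8.62 against 8.45 to 8.48) and Rrm2 (7.24 against 7.20 to 7.21). Nuc library 4 lay below the other Nuc libraries for Ccnd2 (10.12 against 10.42 to 10.46), Dusp1 (3.12 against 3.39 to 3.44), Itga1 (5.15 against 5.61 to 5.65), Loxl2 (6.29 against 6.63 to 6.66), Pola1 (4.63 against 5.01 to 5.07), Tgfbi (0.0307 against 1.45 to 1.63), Tgfbr2 (6.86 against 7.25 to 7.28) and Vcl (7.90 against 8.33 to 8.40). KO library 1 lay above the other KO libraries for Sema3a (5.12 against 4.20 to 4.32) and Timp2 (9.99 against 9.84 to 9.85). KO library 1 lay below the other KO libraries for Acat2 (7.73 against 8.01 to 8.04), C1ra (5.97 against 6.21 to 6.26), Cdkn2b (5.61 against 6.08 to 6.16), Tagln2 (8.06 against 8.32 to 8.37) and Tgm2 (0.12 against 1.64 to 1.82). KO library 2 lay below the other KO libraries for Dkk2 (-2.62 against -0.90 to -0.59) and Fosl1 (3.92 against 4.66 to 4.72). KO library 3 lay above the other KO libraries for Lss (6.25 against 5.68 to 5.77) and Txnip (7.16 against 6.99 to 7.02). KO library 3 lay below the other KO libraries for Atp6v1a (6.81 against 6.92 to 6.94) and Vegfa (6.19 against 6.38 to 6.41). KO library 4 lay above the other KO libraries for C3 (6.56 against 5.73 to 5.84) and Twist1 (5.61 against 5.21 to 5.22). Values are log2 levels, those after "against" being the range of the other 3 libraries of the group, and none of the genes changed direction when that library was left out, with Lss in KO library 3 as the exception.

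The log2 fold change of Nuc over KO cells differed between 1 mM and 10 mM glucose for 4351 genes by limma's test of the difference. With the value in 10 mM glucose subtracted from that in 1 mM, the difference was above 0 for Creld2 (4.19 ± 0.22), Ptgs2 (3.17 ± 0.28), Hyou1 (3.13 ± 0.11), Hspa5 (3.04 ± 0.16), Cxcl1 (2.99 ± 0.41), Fos (2.92 ± 0.66), Manf (2.79 ± 0.20), Dusp6 (2.72 ± 0.36) and Cdc6 (1.89 ± 0.14). It was below 0 for Txnip (-3.53 ± 0.26), Igfbp5 (-3.35 ± 0.25), Plekhg4 (-2.20 ± 0.33), Prelp (-2.09 ± 0.16), Aoc3 (-1.99 ± 0.20), Aspn (-1.96 ± 0.11), Wdr6 (-1.72 ± 0.13) and Insig1 (-1.23 ± 0.12). Each medium was a table and, in the labels, a batch of its own, so medium and batch cannot be told apart.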

How the results depend on the processing

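The count of genes called between Nuc and KO cells (5800) was 5034 with only Nuc and KO libraries fitted, 5673 with no trend, 5698 with a minimum mean, 5782 with equal medians, 5867 with quantile normalization and 6239 with library weights. Leaving out each library in turn gave 5279 to 5731. Genes called at 2-fold or more (1163) numbered 831 with 1 added on the linear scale and 1127 to 1203 with a library left out. The counts against WT cells and Cyto cells were 3022 to 4008 and 3400 to 4211 with a library left out, and that of the difference between media 4086 to 4339. The difference in mitochondrially encoded share, -0.585 percentage points, was -0.599 to -0.560 with a library left out, where the exact permutation p of 0.0571 is the smallest that 3 against 4 libraries allow. As a share of each library's own sum the difference was -0.8425 percentage points.

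The replicate number as a block gave 6259 genes between Nuc and KO cells, 3104 higher and 3155 lower, 4257 against WT and 4372 against Cyto cells. The same-numbered Nuc and KO libraries correlated in their deviations at 0.185, 0.087, 0.0422 and 0.359, and differently numbered ones at -0.226 to 0.129. Whether equal numbers mark a shared step is not given in the labels and was not tested. The block was therefore kept as an alternative and not used in the main fit. It added the calls of Crebbp and Creld2.

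Of 4535 recomputed values of 267 named genes, 62 changed call or sign, and of 2006 recomputed counts of list members 70 moved by over 1.5 times. Sign changed in 22 values of 7 genes that were not called. Hspa5 was -0.12 under quantile normalization (limma adjusted p = 0.0438), -0.056 with library weights, -0.015 without the libraries numbered 4, and -0.059, -0.042 and -0.0021 without Nuc library 4, KO library 1 and KO library 2. Lss was 0.018, 0.0087 and 0.096 without Nuc library 2, Nuc library 4 and KO library 3 (-0.10 to 0.096 with a library left out). Orc1 was -0.11 with library weights, and -0.018 and -0.030 without KO library 1 and KO library 2 (-0.030 to 0.20 with a library left out). Ep300 was 0.029 with library weights and 0.040 without Nuc library 4 (-0.31 to 0.040 with a library left out), and Cs was 0.0086 with library weights. Thy1 was 0.12 without the libraries numbered 4, and 0.0031 and 0.014 without Nuc library 4 and KO library 4 (-0.25 to 0.014 with a library left out). Sfrp2 was 0.38 with library weights, 0.20 without the libraries numbered 4, and 0.16 and 0.00047 without Nuc library 4 and KO library 2 (-0.54 to 0.16 with a library left out). The cause was not tested. Low values are limited by the unknown depth.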
